A study of Saccharomyces cerevisiae with 6 samples.

Results

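The genes described here make GMP from IMP and recover purine bases from inside and outside the cell in budding yeast. They number 9: IMD2, IMD3 and IMD4 (IMP dehydrogenase), GUA1 (GMP synthetase), GUK1 (guanylate kinase), APT1, HPT1 and AAH1 (salvage enzymes) and FCY2 (the purine-cytosine permease). They were chosen by name, 1 probe set stood for each, and they are 9 of the 5449 Saccharomyces cerevisiae genes measured. Total RNA came from S288C strains of mating type MAT a grown with air in chemostats, continuous cultures whose glucose supply set growth at 0.10 per hour, at 30 °C and pH 5. The wild type was grown in YNB medium with 10 mM 3AT (aminotriazole, an inhibitor of the histidine enzyme His3) and the gcn4-delta strain, here gcn4Δ, in YNB with 0.1 mM 3AT, with 3 arrays for each. GCN4 encodes the activator of amino acid synthesis genes under amino acid shortage. Both groups therefore grew under 3AT at one dilution rate, but strain and 3AT concentration differ together and cannot be told apart. The labels do not say whether replicates came from separate chemostats, so the spread behind each p-value may be technical rather than between cultures.

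Purine nucleotides are built from phosphoribosyl pyrophosphate (PRPP) up to IMP, where the path splits. ADE12 and ADE13 lead to AMP, while IMP dehydrogenase makes XMP, the committed step toward guanine nucleotides, and Gua1 turns XMP into GMP, which Guk1 phosphorylates to GDP. Salvage enzymes bypass this synthesis: Apt1 joins adenine to PRPP to give AMP, Hpt1 does the same for hypoxanthine and guanine, and Aah1 deaminates adenine to hypoxanthine, so that adenine can enter the GMP side. IMD2 is known as the IMP dehydrogenase gene that is induced when guanine nucleotides run low. The ADE genes are activated by Bas1 with Pho2, and Gcn4 and Bas1 recognise the same short core sequence.

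The deleted gene was checked first. GCN4 read 7312, 7309 and 7248 in wild type replicates 1, 2 and 3 and 14.5, 213 and 11.4 in gcn4Δ replicates 1, 2 and 3, of which replicate 2 exceeded background. Of the markers of mating type, the MAT a gene STE2 read 2866 on average in the wild type and 2845 in gcn4Δ, and HMLALPHA1, a gene of MAT alpha cells, was below background on all 6 arrays. The other measured MAT alpha genes, STE3, SAG1, MF(ALPHA)1 and MF(ALPHA)2, were above background on all 6 arrays at strain means between 44.0 and 366, and none of the mating type markers passed the test. Wild type replicate 1 stood apart from the other wild-type arrays: 46 genes were at least 2-fold above both of them and 100 genes at least 2-fold below both, against 8 and 40 genes for wild type replicate 2 and 5 and 2 for wild type replicate 3. Among the gcn4Δ arrays the highest such counts were 27 genes above, in replicate 2, and 18 below, in replicate 3. Results that rest on that array are given with and without it. All 9 members were above background on every array, where background is the 95th percentile of probe sets named for genes of other organisms (17.9 to 25.2 in intensity). Intensities are the deposited values on a linear scale. They give each transcript's share of the RNA of a whole culture, so that a change in few cells and a change in all cells cannot be told apart, and levels of different genes are not compared.

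Of the 9 members, only APT1 passed the test, being higher in gcn4Δ, at an adjusted p under 0.05 in limma with adjustment over all probe sets. The share of genes called higher over the whole array was 5.34%, and 11.3% were called in either direction, so 1 call among 9 members lies near the background. With no adjustment, 4 members were higher and 0 lower at p under 0.05, where 16.4% of all genes were higher and 12.3% lower. The groups did not overlap for 6 members, with all 3 gcn4Δ arrays above the wild type for 5 and below it for 1. Such separation held for 35.7% of all genes, 21.1% upward and 14.6% downward. The median log2 change was 0.12 over the members and 0.04 over all genes, with a range from -0.27 to 0.82 among the members. The members' median was 0.25 without wild type replicate 1. The median over all genes was not taken in that fit, so the 0.04 of the full fit is no measure for it.

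**Figure D1:**
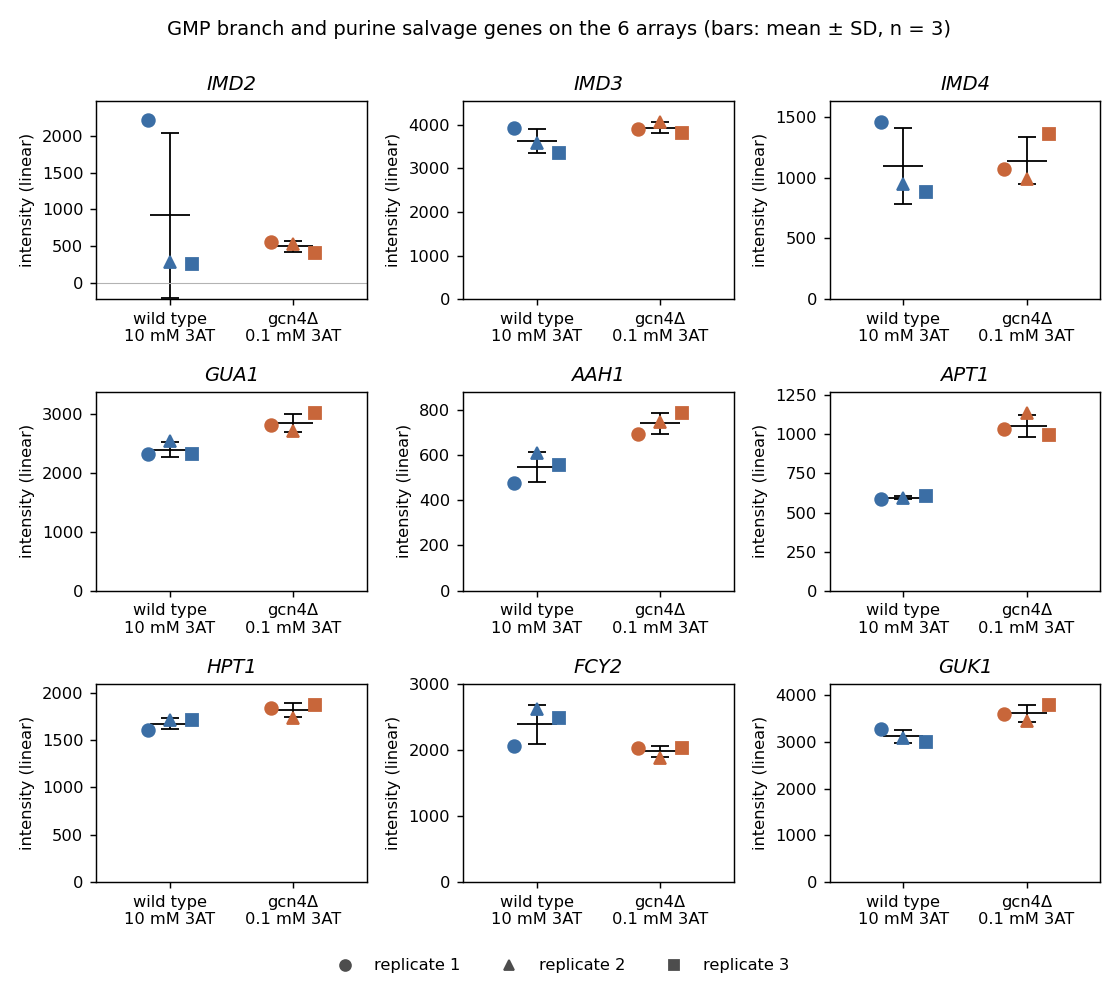
Intensity (linear scale, vertical axes) of the 9 genes on the 3 wild-type and 3 gcn4Δ arrays, 1 point an array with its replicate number by shape, and bars for the mean ± SD (n = 3). APT1 lies between 587 and 603 in the wild type and between 995 and 1135 in gcn4Δ, while IMD2 reads 2219 in wild type replicate 1 and at most 558 on every other array.

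IMD2 (YHR216W) varied more between wild-type arrays than between strains. It read 2219, 279 and 259.9 in wild type replicates 1, 2 and 3 and 558, 521 and 406 in gcn4Δ replicates 1, 2 and 3. The gcn4Δ arrays thus lay between wild type replicate 1 and the other wild-type arrays, and the groups overlapped. The highest wild-type array was 8.54-fold above the lowest, against 1.38-fold among the gcn4Δ arrays. Over all 6 arrays the log2 change was -0.15 ± 0.79 (SE, adjusted p = 0.918), with a 95% interval from -2.02 to 1.73 that excludes neither a large rise nor a large fall. Without wild type replicate 1, an omission listed for every array with earlier results known, IMD2 was higher in gcn4Δ by 0.87 and passed the test (adjusted p = 0.0164). It was at -0.63 when wild type replicate 2 was omitted and at -0.68 when replicate 3 was, and did not pass in either fit (adjusted p = 0.640 in both). The direction therefore depends on a single array, and the part that this array plays was not tested beyond its omission.

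The excess of IMD2 in wild type replicate 1 ranked 1 among 5449 genes, and 6 when deviations in either direction were ranked by size. Its log2 value there was 3.04 above the mean of wild type replicates 2 and 3. ADH2, the glucose-repressed alcohol dehydrogenase gene that turns ethanol back into acetaldehyde, had the next largest excess, 2.74. The probe set of IMD2 is of a type marked on the array as able to bind near-identical sequences, and the genome holds a disrupted copy, IMD1, whose own level was not analysed here. The IMD2 signal can therefore include RNA of that copy. Of the other genes in the purine lists, HAM1, which clears inosine and xanthosine triphosphates, and the uridine permease gene FUI1 were the only ones to spread over 2-fold among wild-type arrays, at 2.32-fold and 2.02-fold.

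**Figure D2:**
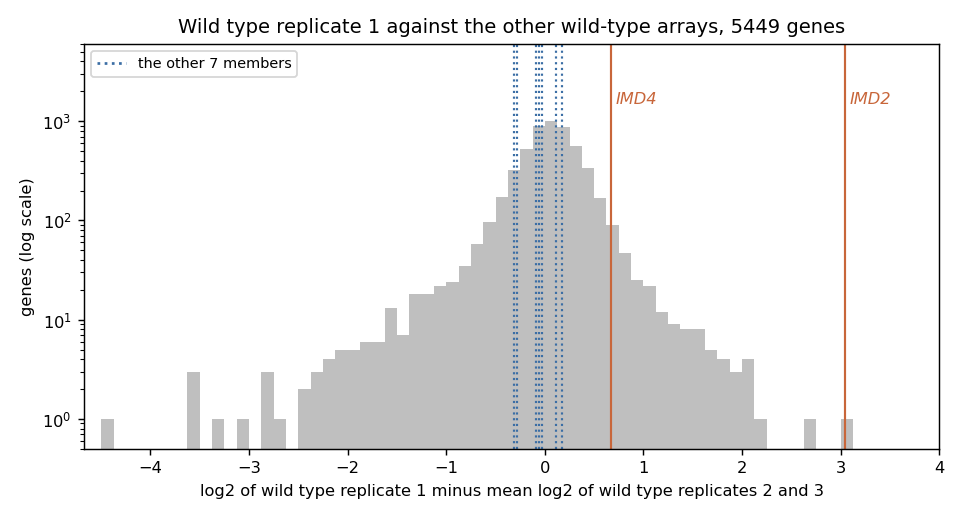
Number of genes (vertical axis, log scale) by the difference between log2 of wild type replicate 1 and the mean log2 of wild type replicates 2 and 3 (horizontal axis), for 5449 genes. IMD2 lies at the right end with 3.04 and IMD4 at 0.67, while the other members lie between -0.31 and 0.18.

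IMD3 and IMD4, the paralogs of IMD2 with probe sets of their own, did not pass the test. IMD3 (YLR432W) read 3933, 3593 and 3365 in wild type replicates 1, 2 and 3 and 3918, 4066 and 3813 in gcn4Δ. The ranges overlapped, and the log2 change of 0.12 ± 0.09 (SE) did not pass (adjusted p = 0.430), with a 95% interval from -0.10 to 0.33. It moved to 0.18 when wild type replicate 1 was left out and to 0.064 when replicate 3 was, and passed in none of the omissions. IMD4 (YML056C), whose intron hosts a small nucleolar RNA, read 1458, 951 and 886 in the wild type and 1072, 988 and 1359 in gcn4Δ. Wild type replicate 1 and gcn4Δ replicate 3 were the high arrays, so that the spread within each strain exceeded the difference between them. Its log2 change was 0.08 ± 0.21 (SE, adjusted p = 0.842, 95% interval -0.43 to 0.59), and 0.30 without wild type replicate 1 (adjusted p = 0.241). The sign of IMD4 turned in 3 of the 6 omissions of 1 array, with values down to -0.06.

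Whether the paralogs changed unequally was tested by the difference of their log2 values within each array, in an exact permutation test over the 20 splits of 6 arrays. The change of IMD2 minus that of IMD3 was -0.27 (two-sided exact permutation p = 1), that of IMD2 minus IMD4 was -0.23 (exact permutation p = 1), and that of IMD3 minus IMD4 was 0.04 (exact permutation p = 0.7). The smallest p that 3 arrays against 3 allow is 0.1, so none of these pairs could have passed. Without wild type replicate 1 the first of these differences was 0.69 and the second 0.57.

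GUA1 and GUK1, which follow IMP dehydrogenase on the way to guanine nucleotides, were slightly higher on every gcn4Δ array but did not pass. GUA1 (YMR217W), the glutamine-dependent GMP synthetase, read 2323, 2538 and 2309.8 in wild type replicates 1, 2 and 3 and 2814, 2708 and 3003 in gcn4Δ replicates 1, 2 and 3. The lowest gcn4Δ array was above the highest wild-type array. The log2 change was 0.25 ± 0.09 (SE, adjusted p = 0.117, 95% interval 0.04 to 0.46) and stayed between 0.21 and 0.29 when any 1 array was left out. GUK1 (YDR454C), the kinase that turns GMP into GDP, read 3278, 3075 and 3004 in the wild type and 3595, 3447 and 3796 in gcn4Δ. These groups did not overlap either, and the log2 change of 0.21 ± 0.08 (SE) did not pass (adjusted p = 0.156, 95% interval 0.01 to 0.41).

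Among the salvage enzymes, APT1 rose in gcn4Δ. APT1 (YML022W), adenine phosphoribosyltransferase, read 587, 594 and 603 in wild type replicates 1, 2 and 3, and 1032, 1135 and 995 in gcn4Δ replicates 1, 2 and 3. Every gcn4Δ array was far above every wild-type array, and the wild-type arrays differed by no more than 1.03-fold. The mean rose from 594.9 ± 7.83 to 1054 ± 72.6 (SD, n = 3 each). This was a 1.77-fold rise, or 0.82 ± 0.08 (SE) on the log2 scale (limma, adjusted p = 0.00172). It passed in all 6 fits that left out 1 array, with log2 changes of 0.77 to 0.86. The paralog APT2, for which no such enzyme activity is known, read 628, 618 and 727 in the wild type and 775, 899 and 701 in gcn4Δ. Its log2 change was 0.26 (adjusted p = 0.210), the groups overlapped, and the difference between the changes of APT1 and APT2 was not tested.

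AAH1 lay just outside the threshold. AAH1 (YNL141W), adenine deaminase, read 476, 609 and 554 in wild type replicates 1, 2 and 3 and 690.4, 747 and 783 in gcn4Δ replicates 1, 2 and 3. All gcn4Δ arrays were above all wild-type arrays, and the lowest wild-type value was again in replicate 1. The log2 change was 0.44 ± 0.11 (SE, adjusted p = 0.0539, 95% interval 0.17 to 0.72), or 1.36-fold. Leaving out wild type replicate 2 brought it past the threshold at 0.53 (adjusted p = 0.0454), and none of the other omissions did. Without wild type replicate 1 it was 0.35 (adjusted p = 0.0667), the lowest of the 6 omissions. The highest adjusted p among them was 0.148, without gcn4Δ replicate 2. HPT1 (YDR399W), the hypoxanthine-guanine phosphoribosyltransferase, read 1605, 1711 and 1711 in the wild type and 1845, 1741 and 1876 in gcn4Δ. The groups were separate by a small margin, and the log2 change of 0.12 ± 0.08 (SE) did not pass (adjusted p = 0.366, 95% interval -0.07 to 0.31).

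FCY2 was the only member whose gcn4Δ arrays all lay below the wild type. FCY2 (YER056C), the plasma membrane carrier of adenine, guanine, hypoxanthine and cytosine, read 2060.3, 2629 and 2491 in wild type replicates 1, 2 and 3 and 2038, 1881 and 2027 in gcn4Δ replicates 1, 2 and 3. Wild type replicate 1 lay just above the highest gcn4Δ array, and the other wild-type arrays lay well above it. The log2 change was -0.27 ± 0.11 (SE, adjusted p = 0.179, 95% interval -0.53 to 0.0033). It was -0.19 without wild type replicate 2 (adjusted p = 0.334) and -0.23 without wild type replicate 3 (adjusted p = 0.324). Of the 6 omissions of 1 array, FCY2 passed only in that of wild type replicate 1, at -0.37 (adjusted p = 0.0402). In that fit 3 of the 9 members passed, APT1 and IMD2 higher and FCY2 lower, against 6.51% of all genes called higher and 6.57% called lower. FCY21 and FCY22, relatives of FCY2 near it on the chromosome, read higher in gcn4Δ: FCY21 rose from 19.5 ± 2.66 to 71.3 ± 11.0 (SD, n = 3 each; fitted log2 change 1.87, adjusted p = 0.000614). Only 1 of 3 wild-type arrays exceeded background for FCY21, so the size of its change rests on wild-type values near background, and 2 of 3 did for FCY22, whose log2 change was 0.51 (adjusted p = 0.0247). The call of FCY22 was lost in 4 of the 6 omissions of 1 array and with trend and robust variances, and quantile normalization again took its change to 0.12 (adjusted p = 0.546).

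**Figure D3:**
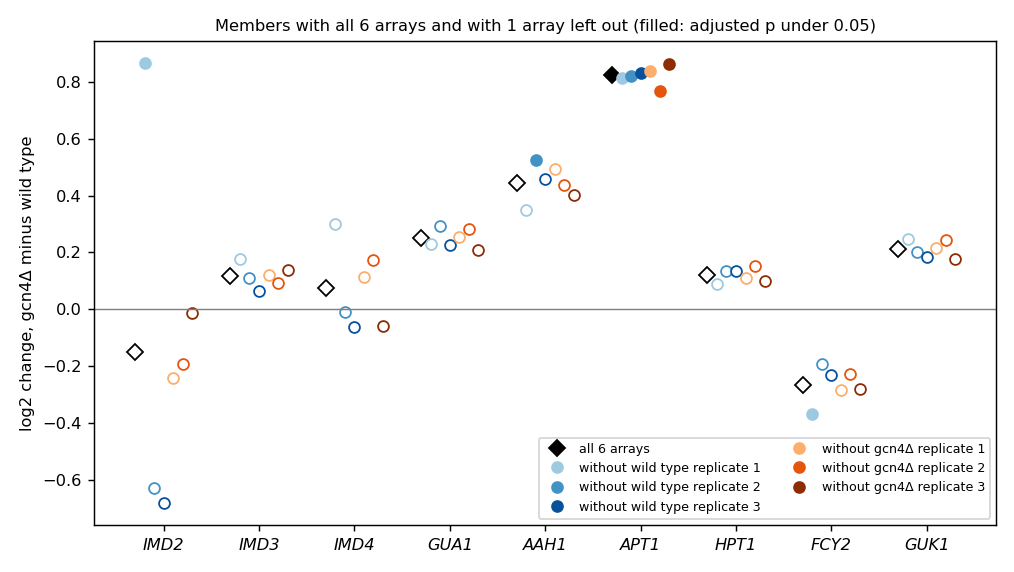
Log2 change (gcn4Δ minus wild type, vertical axis) of each member with all 6 arrays (diamonds) and with 1 array left out (circles), filled where the adjusted p is under 0.05. APT1 stays between 0.77 and 0.86 and is filled in every fit, while IMD2 runs from -0.68 to 0.87 with the array left out.

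Purine synthesis genes were mostly lower in gcn4Δ. Of the enzymes up to IMP, 5 of 7 measured fell in gcn4Δ and 0 rose, with a median log2 change of -0.55. Of all genes, 6% were called lower and 5.34% higher. At an unadjusted p under 0.05, 6 of these enzymes were lower and 1 higher, against 12.3% and 16.4% of all genes. ADE1 fell by 0.78 and ADE8 by 0.73 on the log2 scale, each called in all 6 omissions of 1 array. ADE2, ADE4 and ADE6 were at -0.55, -0.57 and -0.55, and were called in 2, 2 and 4 of the 6 omissions. ADE16 and ADE17, the pair of paralogs for the last steps to IMP, were at 0.47 (adjusted p = 0.0860) and -0.22 (adjusted p = 0.113). The number called there dropped to 2 on leaving out either of gcn4Δ replicates 1 and 2, and to 3 on leaving out gcn4Δ replicate 3 or wild type replicate 2. Both enzymes from IMP to AMP fell as well. ADE12, adenylosuccinate synthetase, fell by 0.56 (adjusted p = 0.00584) and ADE13, adenylosuccinate lyase, by 0.42 (adjusted p = 0.0387), the latter lost in 4 of 6 omissions and with quantile normalization again (adjusted p = 0.0560). BAS1 fell from 1189.8 ± 99.9 to 592 ± 35.4 (SD, n = 3 each). On the log2 scale BAS1 fell by 1.01 (adjusted p = 0.00127), and PHO2 was at -0.36 (adjusted p = 0.186), or -0.22 without wild type replicate 1.

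The GMP and AMP sides were compared within arrays, from GUA1 on the GMP side and ADE12 on the AMP side. Gua1 acts on XMP, after the split at IMP. The IMD genes, which act at the split, were not compared with ADE12. GUA1 was at a log2 change of 0.25 and ADE12 at -0.56, which is a difference of 0.81. The log2 value of GUA1 minus that of ADE12 was -1.12, -0.97 and -1.05 in wild type replicates 1, 2 and 3 and -0.26, -0.26 and -0.20 in gcn4Δ, where the level itself reflects the probes and only the shift can be read. The groups did not overlap, and the two-sided exact permutation p of 0.1 is the smallest that 3 arrays against 3 allow (0.4 after Benjamini-Hochberg adjustment over the 4 pairs compared). The difference ranged from 0.77 to 0.85 when any 1 array was left out.

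**Figure D4:**
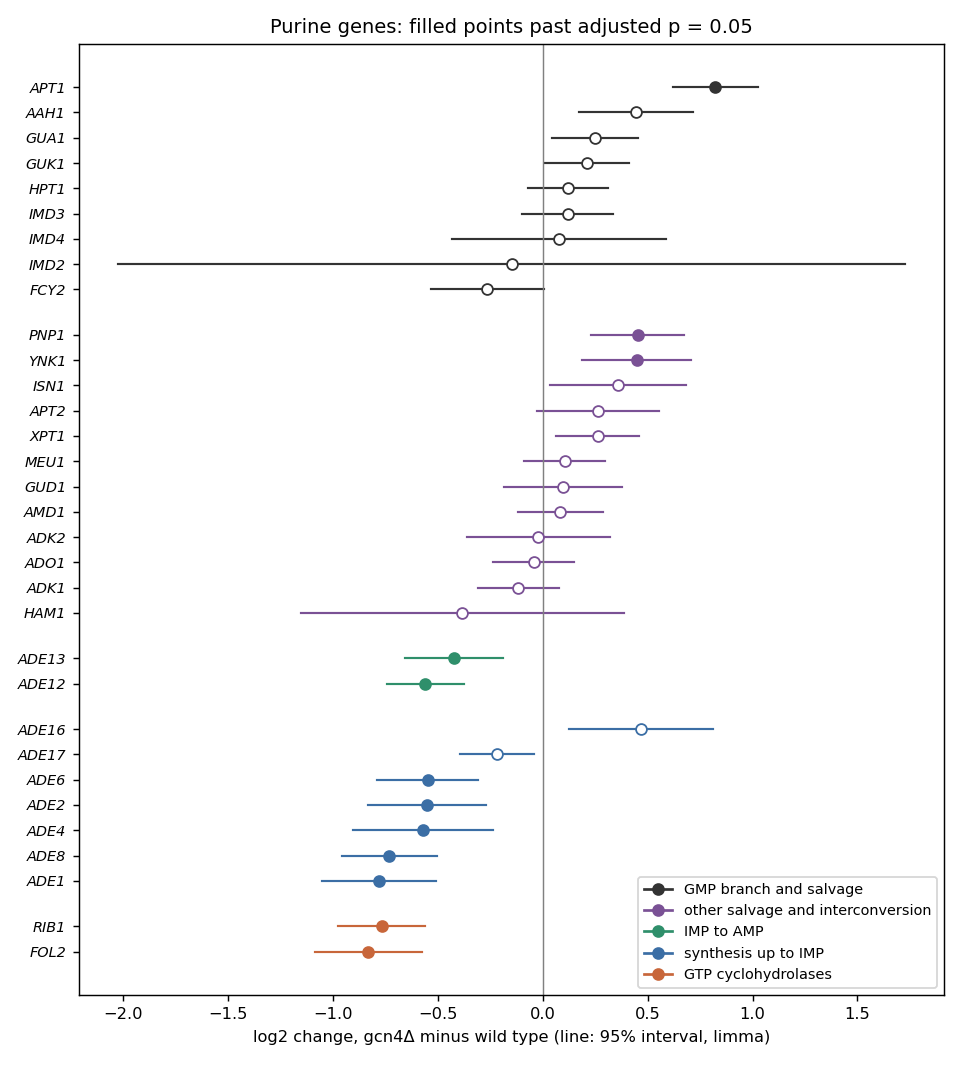
Log2 change (gcn4Δ minus wild type, horizontal axis) with its 95% interval for purine genes grouped by role, filled where the adjusted p is under 0.05. APT1 is the only filled point among the 9 members, at 0.82, while 5 of 7 enzymes up to IMP, both enzymes from IMP to AMP and both GTP cyclohydrolases are filled below 0.

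Of 12 other measured genes of purine salvage and interconversion, 2 rose in gcn4Δ, 0 fell and 10 did not pass. These counts stand beside 5.34% of all genes called higher and 6% called lower. At an unadjusted p under 0.05 there were 4 higher and 0 lower, against the 16.4% and 12.3% of all genes given above. PNP1, purine nucleoside phosphorylase, which frees hypoxanthine and guanine, the bases that Hpt1 uses, was higher by 0.45 (adjusted p = 0.0264), and YNK1, the kinase that makes nucleoside triphosphates, by 0.45 (adjusted p = 0.0453). The call of PNP1 was lost in 4 and that of YNK1 in all 6 omissions of 1 array, and YNK1 did not pass with median centring either (adjusted p = 0.0570). XPT1, which salvages xanthine and guanine, was at 0.26 (adjusted p = 0.0975), with all gcn4Δ arrays above all wild-type arrays. The genes that draw GTP into cofactors, RIB1 of riboflavin and FOL2 of folate synthesis, both GTP cyclohydrolases, fell by 0.77 and 0.83 (adjusted p = 0.00254 and 0.00468). Each kept its call in all 6 omissions.

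PRPP, the substrate of Apt1 and Hpt1, is made by the PRS enzymes, of which 0 of 5 passed in limma, with 0 also at an unadjusted p under 0.05. PRS2 had the largest change there, -0.26 (adjusted p = 0.209). Of 7 one-carbon genes, ADE3 fell by 0.59 (adjusted p = 0.0142) and the others did not pass. Its call was lost without gcn4Δ replicate 1 or gcn4Δ replicate 2. Of the 4 genes of ribonucleotide reductase, which takes GDP and other diphosphates to deoxynucleotides, RNR1 rose by 0.49 (adjusted p = 0.0179). That call was lost in 4 of 6 omissions. Over all genes 5.34% were called higher and 6% lower, the shares to set beside the counts of this paragraph. Among the other transport genes, FUI1, the uridine permease, rose by 1.30 (adjusted p = 0.0179), a call lost without any one of the gcn4Δ arrays, and TPN1, a vitamin B6 carrier related to FCY2, fell by 0.72 (adjusted p = 0.00581).

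Genes known to act on IMD2 or on the Aah1 protein were also examined. The list also held SDT1, for the drug response described below and not as a gene acting on either. NRD1, NAB3 and SEN1, whose products end transcription early upstream of IMD2, did not pass, at log2 changes of -0.30, -0.21 and 0.03. With 1 array left out NRD1 ran from -0.50 to -0.17, NAB3 from -0.26 to -0.18 and SEN1 from -0.08 to 0.14, and none passed. For NAB3 all gcn4Δ arrays lay below all wild-type arrays, as held for 14.6% of all genes. SUB1 was at 0.20 (0.07 to 0.32 with 1 array left out), and SAF1, the F-box gene for Aah1 breakdown, at -0.0038 (adjusted p = 0.986, -0.12 to 0.06 with 1 array left out). SDT1, a nucleotidase gene whose extra dosage protects cells from 6-azauracil, an inhibitor of guanine nucleotide synthesis, fell from 1602 ± 69.7 to 445 ± 31.3 (SD, n = 3 each). On the log2 scale SDT1 fell by 1.85 (adjusted p = 7.81e-05). It was the 1 of 6 genes in that list that passed, where 6% of all genes were called lower and 5.34% higher.

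The nearest pattern to each member, by the highest Pearson r of log2 values over the 6 arrays, is given as a description without a test, since all genes share the same arrays, strains and normalization. Each r was picked as the highest among all measured genes outside the members, over only 6 arrays, so its height carries no weight. ADH2 was nearest to IMD2 (r = 0.999), reading 796, 123 and 115 in wild type replicates 1, 2 and 3 and 229, 217 and 160.1 in gcn4Δ replicates 1, 2 and 3. That likeness includes the high value in wild type replicate 1, and without that array ADH2 was at a log2 change of 0.75. Genes of ribosomal proteins were nearest to the other IMD genes, RPL20B to IMD3 (r = 0.992) and RPL13A to IMD4 (r = 0.994). SMC1 was nearest to GUA1, VPS17 to AAH1, PKC1 to APT1, ZDS1 to HPT1, NSE1 to FCY2 and RMD6 to GUK1, with r from 0.993 to 0.998.

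The measured genes next to the members on the chromosomes were examined after the members' values were known. Of 17 such neighbours, 2 passed, a share near the 11.3% of all genes called. NSE5 (YML023C), a gene of the Smc5-Smc6 complex that is transcribed away from APT1, read 195, 281 and 256 in the wild type and 476, 500.3 and 529 in gcn4Δ. It rose by 1.06 (adjusted p = 0.00581), and with 1 array left out its log2 change was 0.90 to 1.16 and always passed. HIS1, next to FCY2, fell by 1.31 (adjusted p = 0.00177). UNG1, on the other side of APT1, was at 0.03 (adjusted p = 0.874).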

How the data were processed

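The deposited intensity values are linear and, per the submitters' processing notes, RMA summaries of each probe set. Its version is not stated in the labels used here. RMA sets arrays to one distribution, which evens out a change shared by most genes. Of 10928 probe sets, 5498 matched S. cerevisiae genes by gene identifier, through the platform annotation and the R64 gene table, covering 5449 genes. Each member has 1 probe set. Start positions in that gene table gave the order of neighbours on the chromosomes. Here log2 was taken without a pseudocount and limma 3.58.1 (R 4.3.3) ran the test (lmFit, eBayes, gcn4Δ minus wild type, no covariates), p-values being adjusted (Benjamini-Hochberg) over those 5498 probe sets at a threshold of 0.05. The fit was tested on simulated data. Plots used matplotlib 3.10.9 (Python 3.11.15). The 6 arrays limit the precision.

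Members and lists were chosen with earlier results of these data known. Named were all members, ADE12, ADE13, XPT1, APT2, BAS1, PHO2 and GCN4, and for each member its nearest gene. Of each other list the genes called were named, or else the largest change. Other genes were chosen after their values were seen. ADE5,7 and IMD1 were not analysed here. Alternatives were the replicate block, each array left out, quantile normalization again, median centring, no lowest 25% of probe sets, trend and robust variances, array weights, the mean of probe sets, a threshold of 0.01 and a 2-fold minimum. A background filter was added after seeing the data.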

Additional observations from a re-analysis of the deposited data

How the results depend on the processing

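Between 1 and 3 members were called when any 1 array was left out. The number was 2 with the lowest 25% of probe sets left out or with trend and robust variances (APT1 and AAH1), 4 with array weights (these, GUK1 and FCY2), whose estimation did not converge fully, and 0 with a 2-fold minimum. APT1 was called in all 14 refits. Over all genes the 618 calls became 210 with the replicate number as a block, 220 to 713 without 1 array, 1443 with array weights, 224 at a threshold of 0.01 and 174 with a 2-fold minimum; the cause was not tested. Of 126 refitted log2 changes of members, 114 kept their direction and their side of the threshold, and 7 kept their direction and newly passed. The other 5 turned, and of these only IMD2 without wild type replicate 1 passed. A call was lost in 0, but only APT1 had a call to lose. The replicate block, both filters, trend and robust variances and the mean of probe sets left every member's log2 change as it was. In those refits no change could turn. IMD2 turned to 0.67 with array weights (adjusted p = 0.263), and ran from -0.68 to 0.87 without 1 array, as IMD4 did from -0.061 to 0.30. The differences in change ran from -0.75 to 0.69 for IMD2 against IMD3, from -0.62 to 0.57 for IMD2 against IMD4 and from -0.12 to 0.20 for IMD3 against IMD4. Same-numbered arrays of the strains did not deviate together (r of deviations -0.336, -0.383 and -0.221 over probe sets). The deviations were taken from each strain's own mean, which ties these values to one another. They therefore cannot decide whether the numbers pair the samples, which the labels do not say. With the replicate block 1 member, APT1, was called (adjusted p = 0.0255). Of the enzymes up to IMP 1 of 7 was then called lower, of the pair from IMP to AMP 0 (ADE12 at adjusted p = 0.0660), and of the other salvage genes 0, while both GTP cyclohydrolases, BAS1, FCY21, FUI1 and SDT1 were still called. The difference in change of GUA1 against ADE12 was again 0.81 (exact sign-flip p = 0.25, the smallest 3 pairs allow).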
